A study of Saccharomyces cerevisiae with 6 samples.

Results

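*HBN1* and *FRM2*, which encode nitroreductase-like proteins, and *OYE2* and *OYE3*, which encode old yellow enzymes, were followed in *S. cerevisiae* treated with cadmium sulphide quantum dots (CdS QDs, semiconductor nanoparticles). These 4 genes were matched by symbol in the annotation of the array, out of 5449 genes measured, and each was represented by 1 probe set. The genes were chosen by their log2 fold changes in the CdS QDs group against the untreated control, as earlier results of these arrays had shown them. Their values in that comparison are therefore a description and were not tested. The strain in all groups was BY4742, a haploid of the alpha mating type that carries deletions in *HIS3*, *LEU2*, *LYS2* and *URA3*. Cultures grew in rich medium (YPD) at 30 °C for 24 h, were moved to fresh YPD, and were kept there for another 24 h. The untreated control received nothing, the nystatin group 0.27 mg/L nystatin, and the CdS QDs group 0.27 mg/L nystatin plus 100 mg/L CdS QDs, by the labels of the samples. All values given for CdS QDs thus include nystatin. Nystatin is an antifungal that binds ergosterol and opens pores in the membrane, and it was given to help the particles enter the cells. No group received CdS QDs without nystatin. Each group has 2 arrays, which according to the methods are aliquots of RNA extracts, so that p-values measure only the spread between arrays of a group, which may be technical.

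Nitroreductases are flavin enzymes that pass electrons from NADH or NADPH to nitro groups and quinones, and *HBN1* was named for its homology to the bacterial enzymes. *FRM2* was named after mutants in which fatty acids fail to repress genes of fatty acid synthesis, and the gene lies beside *HBN1* on the same chromosome. Old yellow enzymes carry flavin mononucleotide (FMN) and use NADPH to reduce the double bond of unsaturated aldehydes and ketones, among them products of lipid oxidation. *OYE2* encodes the main form in laboratory strains, and *OYE3* a close homologue that is known as a target of the redox-sensitive transcription factor Yap1.

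Values are log2 signals after RMA, a method that corrects the background, gives all arrays the same distribution and summarises the probes of each probe set. Precision is limited by there being 2 arrays in each group. The 95th percentile of the probe sets of the fission yeast *S. pombe*, whose RNA was not on the arrays, served as background and lay between 1.42 and 1.48. All 4 genes exceeded it on all 6 arrays. The 2 arrays of a group correlated across *S. cerevisiae* probe sets at 0.998 to 0.999. The 4 transcripts specific to alpha cells averaged 5.24 to 7.59 in the untreated control, and the 6 specific to a cells averaged 3.70 to 6.46, so that the ranges overlap and these probe sets do not settle the mating type. *LEU2*, *LYS2* and *URA3*, which are deleted in this strain, averaged 1.16 to 1.59 there, at or close to the background. *LEU2* read 2.29 and 1.98 on the CdS QDs arrays, above the background, and rose by 0.55 against the untreated control (standard error 0.11, limma adjusted p = 0.00319). With nystatin alone *URA3* fell by 0.23 (limma adjusted p = 0.0116) and *LYS2* fell by 0.20 (limma adjusted p = 0.0204). Calls of this size, close to the 0.26 of *HBN1* with nystatin, thus arose for genes that are absent. *HIS3*, which in this strain lacks only an internal part, averaged 8.60, and checks nothing. Probe sets at the 3′ end of 7 control transcripts exceeded those at the 5′ end by 1.58 on both CdS QDs arrays and by 1.41 to 1.47 on the others, a measure of RNA quality whose part in the results was not tested. RNA came from whole cultures, so that more cells with a transcript and more transcript per cell cannot be told apart.

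Of the 4 genes, *HBN1* differed most between the groups. Its log2 values were 6.61 and 6.56 without treatment, 6.83 and 6.86 under nystatin alone, and 9.90 and 9.91 in the CdS QDs group. The arrays of the 3 groups did not overlap, and the step between nystatin and nystatin plus CdS QDs was by far the larger. The means were 6.59 ± 0.033, 6.84 ± 0.026 and 9.91 ± 0.0047 (SD, n = 2 each). *HBN1* was thus higher by 3.32 (standard error 0.043), or 9.99-fold, in the CdS QDs group than in the untreated one, which ranked 5 among the 5449 genes from the highest. Against nystatin alone it was higher by 3.06 (standard error 0.043), or 8.35-fold.

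*FRM2*, the neighbouring homologue, was the dimmest of the probe sets. It read 3.20 and 3.04 without treatment, 3.35 and 3.22 under nystatin alone, and 5.69 and 5.52 in the CdS QDs group. Both CdS QDs arrays lay far above the other 4, while the untreated and nystatin arrays came within 0.02 of each other. In the CdS QDs group *FRM2* was higher by 2.48 (standard error 0.083), or 5.59-fold, than without treatment, and ranked 22. Against nystatin alone it was higher by 2.32 (standard error 0.083), or 4.99-fold.

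*OYE3* differed at both steps. Its log2 values were 7.04 and 7.21 without treatment, 7.66 and 7.80 under nystatin alone, and 9.67 and 9.65 in the CdS QDs group. Each group lay above the one before it with no overlap, and the gap between untreated and nystatin arrays was 0.45. *OYE3* was higher by 2.54 (standard error 0.072), or 5.80-fold, in the CdS QDs group than in the untreated one, and ranked 20. Against nystatin alone it was higher by 1.93 (standard error 0.072), or 3.82-fold.

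*OYE2* differed least between the groups. It read 10.33 and 10.38 without treatment, 10.34 and 10.37 under nystatin alone, and 11.22 and 11.16 in the CdS QDs group. The untreated and nystatin arrays overlapped, and both CdS QDs arrays lay above them by at least 0.77. In the CdS QDs group *OYE2* was higher by 0.83 (standard error 0.047), or 1.78-fold, than without treatment, and ranked 393. Against nystatin alone the difference was also 0.83.

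**Figure D1:**
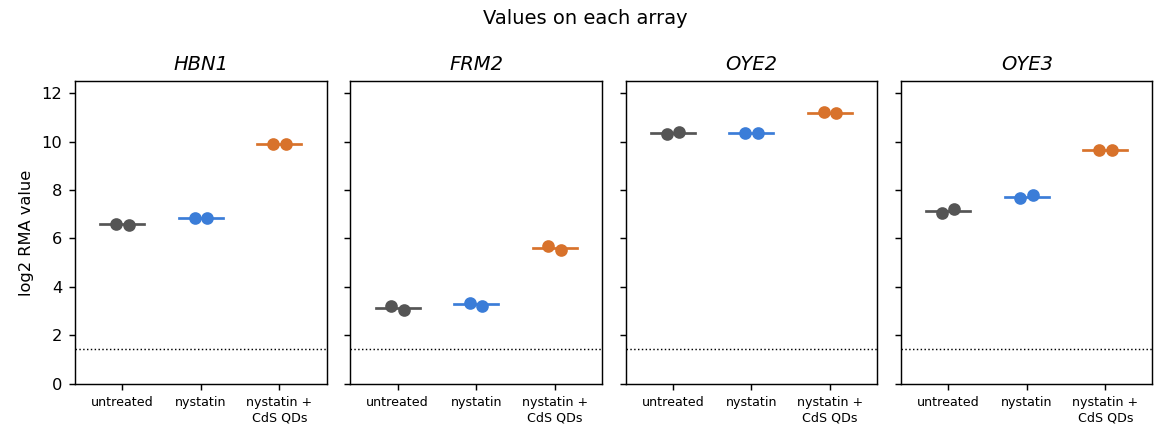
Log2 RMA values (vertical axis) of the 4 genes on each array, by group, with 2 arrays as points and their mean as a line in each group. The dotted line is the mean background from *S. pombe* probe sets (1.45). The CdS QDs arrays lie above all others for every gene, at 9.90 and 9.91 for *HBN1* and at 11.22 and 11.16 for *OYE2*.

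For each of the 4 genes both CdS QDs arrays were above both untreated arrays, as was the case for 42.7% of the 5498 probe sets of *S. cerevisiae*. A log2 fold change of at least 1 was reached by 3 of the 4 genes and by 4.95% of all probe sets. Since this comparison chose the genes, nothing is read from these shares. In the comparison of nystatin plus CdS QDs with nystatin alone, which uses the same CdS QDs arrays, the same 3 genes were at 1 or above, against 4.87% of all probe sets.

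Nystatin alone against the untreated control was not used to choose the genes, although it shares the untreated arrays with the comparison that did. It asks what the antifungal does without the particles. *OYE3* rose by 0.60 with nystatin (standard error 0.072, 1.52-fold, limma adjusted p = 0.00385), and *HBN1* rose by 0.26 (standard error 0.043, 1.20-fold, limma adjusted p = 0.0100). Both nystatin arrays exceeded both untreated arrays for these genes and for *FRM2*, as for 34.3% of all probe sets. *FRM2* did not pass the test, at 0.16 with a 95% interval of −0.03 to 0.36 (limma adjusted p = 0.197). *OYE2* did not pass either, at −0.0028 with an interval of −0.11 to 0.11 (limma adjusted p = 0.972). So 2 of the 4 genes rose, while 10.4% of all probe sets rose in this comparison and 11.4% fell. *OYE3* ranked 26 among 5449 genes from the highest and *HBN1* ranked 295.

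The rise of *OYE3* held when any array was left out, with adjusted p-values up to 0.0426, but its call ended in limma without moderation of the variances (0.0733) and with all probe sets on the array in the fit (0.0578), as did that of *HBN1* (0.0507 and 0.0753). The call of *HBN1* also ended without untreated replicate 1 (0.0654), untreated replicate 2 (0.0756) or nystatin replicate 2 (0.0791), with log2 fold changes between 0.23 and 0.28. Over the whole array 570 probe sets rose with all arrays, and fewer did whenever an untreated or nystatin array was left out. Such fits have 1 array in a group, so fewer calls in them do not single out an array. Measured on the log2 scale, the level reached with nystatin alone made up 23.7% of the full difference of *OYE3* from the untreated control and 7.78% of that of *HBN1*. The share of *FRM2* was 6.57%, but its difference with nystatin did not pass the test and lay between 0.08 without untreated replicate 2 and 0.25 without untreated replicate 1.

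Within each family the genes were compared by the difference of their log2 values on the same array, which does not depend on the scaling of the arrays by a constant. *HBN1* minus *FRM2* was 3.41 and 3.52 without treatment, 3.48 and 3.64 under nystatin alone, and 4.22 and 4.39 in the CdS QDs group. The untreated and nystatin arrays overlapped, and the CdS QDs arrays stood above both. The log2 fold change of *HBN1* with CdS QDs against the untreated control exceeded that of *FRM2* by 0.84 (standard error 0.11), a ratio of folds of 1.79. With nystatin alone the excess was 0.10 (standard error 0.11), and an exact two-sided permutation test of the 4 arrays gave p = 0.667, where the smallest value possible is 0.333. The excess ranged from 0.01 without nystatin replicate 2 to 0.18 without nystatin replicate 1, and was 0.04 and 0.15 without untreated replicate 1 and 2. *FRM2* lay closer to the background than *HBN1*, and the part of this in their difference was not tested.

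The old yellow enzymes differed more. *OYE3* minus *OYE2* was −3.29 and −3.17 without treatment, −2.68 and −2.57 under nystatin alone, and −1.55 and −1.50 in the CdS QDs group. None of the groups overlapped. The log2 fold change of *OYE3* with CdS QDs against the untreated control exceeded that of *OYE2* by 1.70 (standard error 0.068), a ratio of folds of 3.26. With nystatin alone the excess was 0.60 (standard error 0.068). The exact two-sided permutation test gave p = 0.333 there, the smallest value that 2 arrays against 2 allow. From nystatin to nystatin plus CdS QDs it was 1.10, a ratio of folds of 2.14. The levels of different probe sets cannot be set against each other, so these values compare changes and not amounts of RNA.

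**Figure D2:**
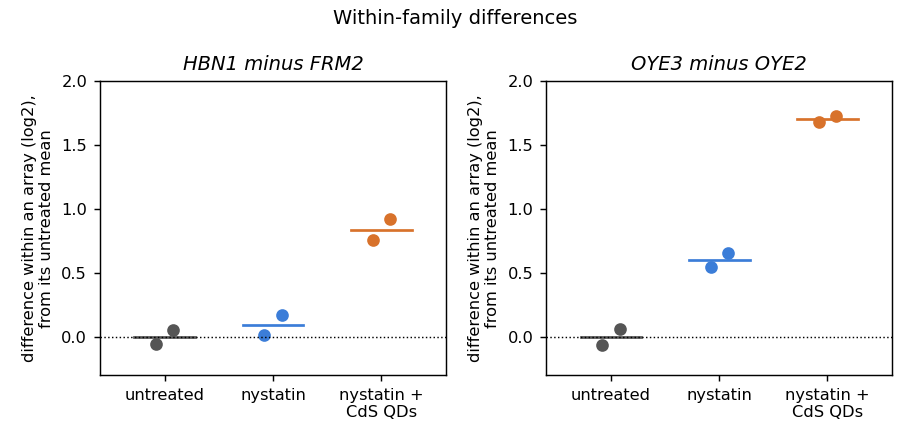
Difference of the log2 values of 2 genes of a family on the same array (vertical axis, set to 0 at the mean of the untreated arrays), by group, with arrays as points and group means as lines. *HBN1* minus *FRM2* is higher by 0.84 with nystatin plus CdS QDs and by 0.10 with nystatin, and *OYE3* minus *OYE2* by 1.70 and 0.60.

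The genes on either side of the 4 genes were examined next, by their order in the R64 annotation. *HBN1* and *FRM2* are adjacent, and *FUS1*, which encodes a membrane protein of cell fusion in mating, follows on the side of *HBN1*. *FUS1* rose by 2.02 with CdS QDs against the untreated control (standard error 0.089, limma adjusted p = 2.05e-06). The log2 fold changes of these 3 adjacent genes all lay above 2, but *HBN1* and *FRM2* were chosen by this comparison. With nystatin alone *FUS1* was at −0.30 (standard error 0.089, adjusted p = 0.0553). Of the genes beyond these, 3 fell and 1 rose. *RNQ1*, a prion protein gene, fell by 0.21, and *BIK1*, a gene of microtubules, fell by 0.35. On the side of *FRM2* the amino acid permease gene *AGP1* fell by 0.36 and the bud neck kinase gene *KCC4* rose by 0.84.

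*OYE2* lies beside *STB5*, which encodes a transcription factor of NADPH metabolism. *STB5* did not pass the test with nystatin plus CdS QDs, at −0.03 (standard error 0.071, limma adjusted p = 0.735). *FMO1*, which encodes a flavin-containing monooxygenase, lies 3 genes away and rose by 0.51 (standard error 0.065, adjusted p = 3.19e-04). *SVP26*, 3 genes away on the other side, did not pass, at 0.10 (standard error 0.051, adjusted p = 0.119). The remaining neighbours of *OYE2*, which are *ROF1*, *YHR180W* and a tRNA gene, were not among the genes matched to a probe set and have no values here. Around *OYE3*, the heme synthesis gene *COX10* rose by 0.54 and *DAP1*, which encodes a heme-binding protein of sterol synthesis, rose by 0.49. The mRNA export gene *MEX67* rose by 0.80, *MRX4* by 0.97 and *MRPL40*, of the mitochondrial ribosome, by 0.40. *NIP100*, which encodes a dynactin subunit, fell by 0.44 (standard error 0.082, adjusted p = 0.00227). None of these neighbours of *OYE3* passed the test with nystatin alone, where *OYE3* itself rose, and the highest of them was *MRPL40* at 0.18 (adjusted p = 0.077). *AGP1*, beside *FRM2*, fell by 0.66 there (adjusted p = 0.00239).

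**Figure D3:**
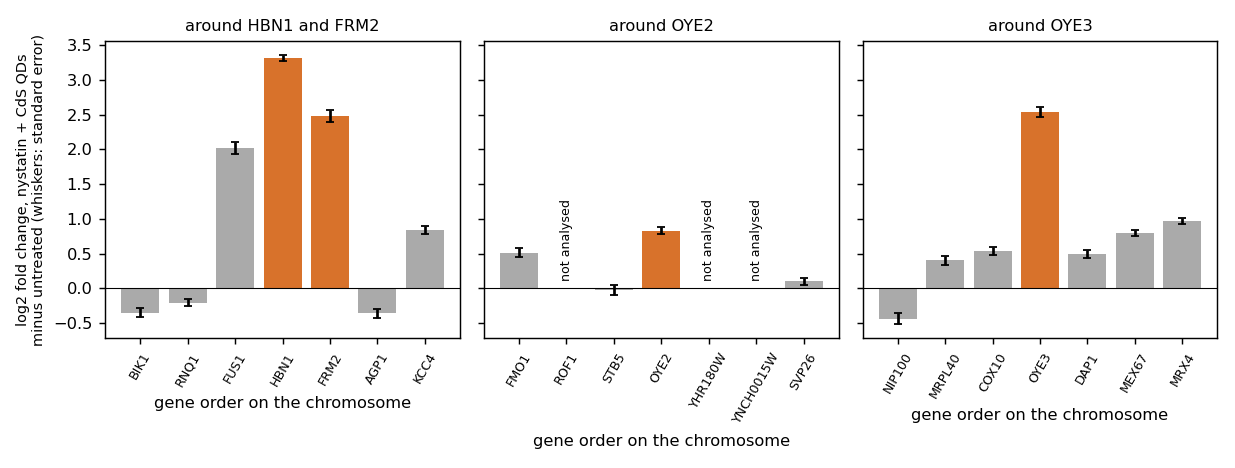
Log2 fold change of CdS QDs against the untreated control (vertical axis, with the standard error) for the genes in order along the chromosome, with *HBN1*, *FRM2*, *OYE2* and *OYE3* in orange and their neighbours in grey. *FUS1* at 2.02 stands beside *HBN1* at 3.32 and *FRM2* at 2.48, whereas the neighbours of *OYE3* at 2.54 reach 0.97 at most. The genes in orange were chosen by this comparison.

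The genes whose pattern over the 6 arrays was most like each of the 4 were found by the Euclidean distance between log2 values centred on the untreated mean. This measure takes up the size of a change as well as its shape. Nearest to *HBN1* was *MF(ALPHA)2*, an alpha-factor pheromone gene (distance 0.245), which had log2 fold changes of 0.43 with nystatin and 3.33 with CdS QDs against the untreated control. It was followed by *PGU1*, a pectinase gene (0.610), the open reading frame *YPR078C* (0.678), *FET3*, a ferroxidase gene of iron uptake (0.686), and *SUL2*, a sulphate permease gene (0.689). Nearest to *FRM2* was *SAM1*, a gene of S-adenosylmethionine synthesis (0.179), then *SAG1*, an alpha-agglutinin gene (0.331), *SVS1* (0.354), *YCL049C* (0.363) and *ARN2*, a siderophore transporter gene (0.384). *FRM2* was in place 16 from *HBN1*, and *OYE3* in place 17. *MF(ALPHA)2* and *SAG1* belong to the 4 transcripts specific to alpha cells. All 4 rose in the CdS QDs group against the untreated control (median 2.15), while 2 of 6 transcripts specific to a cells rose and 3 fell. Over all probe sets 36.5% rose and 38.9% fell. Of the 4, *STE3* rose by only 0.24, and against nystatin alone it did not pass, at 0.03 (limma adjusted p = 0.642).

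For *OYE3* the nearest gene was *SUC2*, the invertase gene (distance 0.319), which was at 0.62 under nystatin alone and 2.74 in the CdS QDs group, against the 0.60 and 2.54 of *OYE3*. Then came the cell wall mannoprotein gene *TIR1* (0.347), *GTO3*, an omega-class glutathione transferase gene (0.382), *TIS11*, a gene of mRNA decay in low iron (0.453), and *FIT3*, a cell wall gene of iron retention (0.495). *FRM2* followed in place 7. *OYE2* had close company, with *RPL11B* (0.0484) and *RPS18A* (0.0503), both of cytosolic ribosomal proteins, *MMT2*, a gene of mitochondrial metal transport (0.0530), *CHA1*, a serine deaminase gene (0.0554), and *SDD2* (0.0629). Its homologue *OYE3* was in place 5119, at a distance of 2.56. Counted from *OYE3*, the same distance put *OYE2* in place 404.

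Genes with related functions were set beside the 4 genes in 10 lists, which together held 103 other genes that were measured. With CdS QDs against the untreated control, 38 of the 103 rose and 44 fell, that is 36.9% and 42.7%. Over all probe sets 36.5% rose and 38.9% fell, so the shares in the lists were near the background. The 103 genes ranged from −2.61 to 1.70, and none had a log2 fold change as high as *FRM2*, *OYE3* or *HBN1*. *OYE2* was exceeded by 11 of them. The 4 genes were chosen by their values in this comparison, and the lists were drawn up with earlier results of these data known. Nothing is therefore read from that order.

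Genes of other enzymes that reduce quinones and carbonyls went in both directions, in a comparison where 36.5% of all probe sets rose and 38.9% fell. Of 5 flavodoxin-like and quinone reductase genes, 1 rose, 3 fell and 1 did not pass, with a median log2 fold change of −0.25 against −0.02 over all genes. *LOT6*, which encodes an FMN-dependent quinone reductase, rose by 0.28 (standard error 0.060, limma adjusted p = 0.00405), while *ZTA1*, an NADPH-dependent quinone reductase gene, fell by 0.75 (standard error 0.048) and *YCP4*, a flavodoxin-like gene, fell by 0.50. Of 13 aldo-keto and carbonyl reductase genes, 6 rose, 4 fell and 3 did not pass, with a median of 0.11. The homologous aldehyde reductase genes *YGL039W* and *ARI1* rose by 1.13 (standard error 0.064) and 1.11 (standard error 0.045), and *ADH7*, an NADPH-dependent alcohol dehydrogenase gene, fell by 0.78. Of 5 measured genes of the aryl-alcohol dehydrogenase family, *AAD10* fell by 0.93 (standard error 0.083, adjusted p = 5.19e-05) and the other 4 did not pass. Among 5 medium-chain oxidoreductase genes 3 rose, 1 fell and 1 did not pass, with a median of 0.59. *YCR102C* rose by 0.80 and *YNL134C* by 0.63, and *BDH2*, a gene similar to butanediol dehydrogenase, fell by 1.17.

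The cofactors of the enzymes were examined through the genes that make them, again beside the 36.5% of all probe sets that rose and the 38.9% that fell. Of 9 genes of FMN and FAD synthesis and transport, 5 rose, 3 fell and 1 did not pass, with a median of 0.15. Fewer of them rose without either untreated replicate, but such a fit has 1 array in that group. *FLX1*, a mitochondrial FAD carrier gene, rose by 0.65 (standard error 0.062, limma adjusted p = 7.36e-05), *RIB3*, of riboflavin synthesis, rose by 0.27 and *RIB2*, of the same pathway, fell by 0.33. Of 13 genes of NADPH supply, 2 rose, 8 fell and 3 did not pass, with a median of −0.30. The 6-phosphogluconate dehydrogenase genes of the pentose phosphate pathway went apart. *GND1*, which encodes the main form, rose by 1.30 (standard error 0.051, adjusted p = 1.33e-06), whereas *GND2*, which encodes the minor form, fell by 0.98 (standard error 0.056, adjusted p = 6.06e-06). *IDP3*, the peroxisomal isocitrate dehydrogenase gene, fell by 2.61.

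Fatty acid genes, to which *FRM2* owes its name, went in both directions. In the CdS QDs group 4 of these 13 genes rose, 8 fell and 1 did not pass, with a median of −0.23, and without untreated replicate 1 there were 4 that rose and 5 that fell. Over all probe sets 36.5% rose and 38.9% fell. *OLE1*, the fatty acid desaturase gene, fell by 1.36 (standard error 0.071, limma adjusted p = 4.34e-06). The acyl-CoA synthetase genes *FAA4* and *FAA2* fell by 1.96 (standard error 0.061) and fell by 1.59 (standard error 0.060). Those that rose included the elongase gene *ELO3* at 1.06.

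Regulators were mixed. Of 13 genes of Yap1, its partners and its kin, 3 rose, 7 fell and 3 did not pass, with a median of −0.31. *YAP1* itself, named here after its value was seen, fell by 0.60 (standard error 0.058, limma adjusted p = 7.58e-05). *CIN5*, which encodes a Yap family factor of salt and osmotic stress, fell by 1.30 (standard error 0.10), while *CAD1*, whose product is close to Yap1, rose by 0.88 and *YAP5*, a factor of the response to high iron, rose by 0.83. Of 10 other regulators 1 rose, 6 fell and 3 did not pass, with a median of −0.17. The stress factor gene *MSN4* rose by 1.11 (standard error 0.080), and *YRR1* and *YRM1*, of multidrug resistance, fell by 0.58 and fell by 0.57.

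The list closest to the old yellow enzymes in regulation holds 18 measured genes of the Yap1-dependent response to electrophiles and thiol oxidants, with *OYE2* and *OYE3* left out. Of these 13 rose, 3 fell and 2 did not pass, with a median of 0.29 against −0.02 over all genes. The shares over all probe sets were 36.5% and 38.9%. Because the list was drawn up with earlier results of these data known, its counts are a description. Fewer genes of the list rose whenever an array was left out. *GPX2*, a glutathione peroxidase gene, rose by 1.70 (standard error 0.059, limma adjusted p = 7.49e-07), *GTT2*, a glutathione transferase gene, by 1.42 (standard error 0.044) and *AHP1*, a peroxiredoxin gene, by 0.91. Against nystatin alone 12 rose, 3 fell and 3 did not pass, with *GPX2* at 1.70 and *GTT2* at 1.38. There 36.7% of all probe sets rose and 38.3% fell.

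With nystatin alone 13 of the 103 list genes rose and 18 fell, 12.6% and 17.5%, where 10.4% and 11.4% of all probe sets did. Both counts were lower whenever an untreated or nystatin array was left out, which leaves 1 array in its group. None of the 103 exceeded *OYE3* in this comparison. The highest was *AAD10*, which rose by 0.57 (standard error 0.083, limma adjusted p = 0.00660), and *CIN5* rose by 0.53 (standard error 0.10, adjusted p = 0.0149). With nystatin plus CdS QDs against the same untreated arrays both were lower, at −0.93 and −1.30. *FAA2* and *FAA4* fell by 0.62 and fell by 0.59 with nystatin, and *IDP3* fell by 0.54. Of the Yap1-dependent list 4 genes rose, 1 fell and 13 did not pass. *FLR1*, a multidrug transporter gene, rose by 0.31 and *AHP1* by 0.26, and *SRX1* fell by 0.29 (limma adjusted p = 0.0127). *GPX2* and *GTT2* did not pass, at 0.00 and 0.03.

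**Figure D4:**
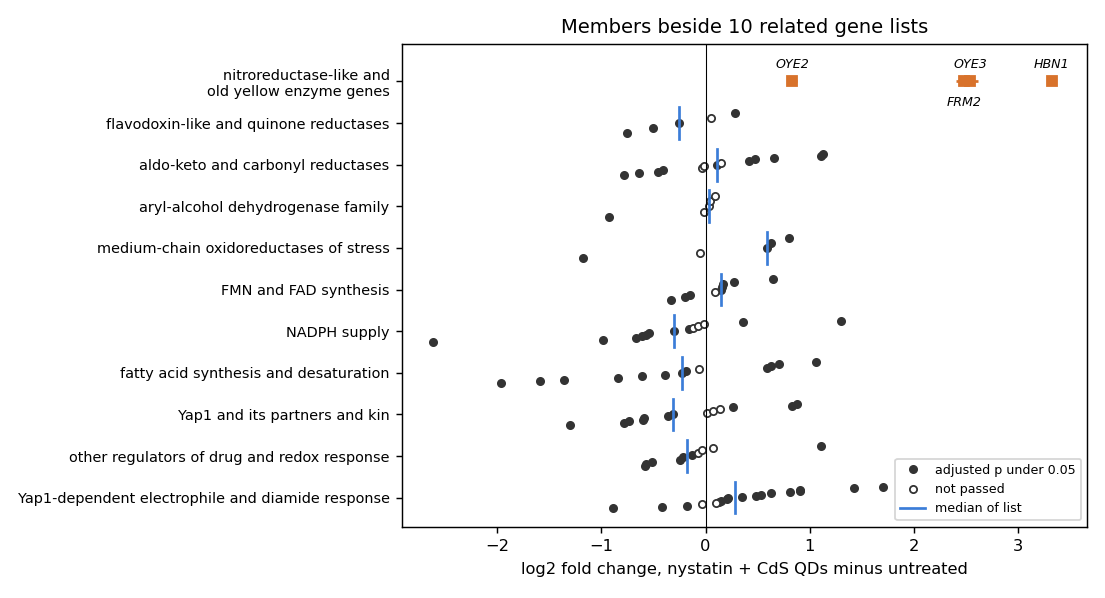
Log2 fold change of CdS QDs against the untreated control (horizontal axis) for the 4 genes (orange squares, with the standard error) and for the genes of 10 related lists (points, filled where the adjusted p is under 0.05), with the median of each list as a blue line. *FRM2* at 2.48, *OYE3* at 2.54 and *HBN1* at 3.32 lie to the right of all list genes, of which the highest is *GPX2* at 1.70, as a description, since this comparison chose the 4 genes.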

How the data were processed

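RNA was measured on 6 Affymetrix yeast genome arrays, 2 per group. The deposited log2 values were made by the authors with Affymetrix Expression Console and RMA and were used as they stand; the scanned intensities were not used here. Genes were assigned to probe sets from the annotation of the array, with names of R64. Of 10928 probe sets, the 5498 with 1 *S. cerevisiae* gene were tested. A gene with several is given by the one with the highest mean. Quantile normalization fixes the distribution of each array, so that values are relative to the other genes.

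A linear model with a mean for each group was fitted to all 6 arrays in limma 3.58.1 under R 4.3.3 (residual degrees of freedom 3, prior 3.80). P-values are two-sided and Benjamini-Hochberg adjusted over the 5498, and rose, fell and passed refer to an adjusted p under 0.05. The 4 genes and the 10 lists were chosen with earlier results of these data known. Named were the 4 genes, the 5 nearest to each, 3 neighbours on each side, and, from each list and comparison, up to 3 of the largest changes that passed. The fit was tested on simulated data. Alternatives were another moderation, scaling, filter or set of probe sets, the replicate number as a block, and each array left out. Tables and figures used Python 3.11.15, pandas 2.3.3 and matplotlib 3.10.9.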

Additional observations from a re-analysis of the deposited data

How the results depend on the processing

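Direction was followed for the log2 fold changes of the 4 genes and for the differences within families, and not for the other named genes. None of these reversed under any alternative tried, apart from *OYE2* with nystatin, which did not pass and lay between −0.03 and 0.02. With nystatin plus CdS QDs, the 4 genes were higher than in either other group under all 120 alternative values. Many of these could not change, because another test, another set of probe sets or an array left out of the third group keeps the log2 fold change. The genes were also chosen by such a difference, so the count is a description. Of these values 1 moved by more than the spread between arrays, *HBN1* at 3.35 after quantile normalization over *S. cerevisiae* probe sets. For nystatin against the untreated control, the call of *HBN1* (0.26) ended with no moderation (limma without eBayes, adjusted p = 0.0507) and with all probe sets on the array in the fit (adjusted p = 0.0753), and that of *OYE3* (0.60) with no moderation (0.0733) and with all probe sets (0.0578). Over 15 alternatives the adjusted p ranged from 0.00371 to 0.0791 for *HBN1*, from 2.64e-04 to 0.0733 for *OYE3*, from 0.0527 to 0.624 for *FRM2* and from 0.801 to 1.00 for *OYE2*. In that comparison 105 probe sets rose and 84 fell with no moderation, and 21 and 22 with all probe sets. With single arrays left out, 81 to 746 rose and 87 to 825 fell, and the log2 fold change was 0.23 to 0.28 for *HBN1* and 0.52 to 0.69 for *OYE3*. The cause of these shifts was not tested. Pairing by replicate number was not used, because the differences between replicates correlated at −0.0511 to 0.0249 between groups. With the replicate number as a block, 453 rose and 506 fell with nystatin, and the calls of *HBN1* (adjusted p = 0.0246) and *OYE3* (0.0116) were kept. The search of promoters for motifs was not run. With 2 arrays per group the limits set by the number of arrays remain, and spread between cultures may not be covered.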
